A study of Mus musculus with 8 samples.

Results

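The cytosolic ribosomal protein genes encode the proteins that, with ribosomal RNA, make up the large and small subunits of the ribosome. They were taken as all genes of the count table whose symbol is Rpl or Rps followed by a number, alone or with the ending a, a1, x, l or l1, together with Rplp0, Rplp1, Rplp2 and Rpsa. This rule uses symbols only and no measured value. It found 85 genes of 41249, of which 51 belong to the large subunit and 34 to the small one. Of these, 77 carry the standard symbols and 8 end in l or l1 and are paralogs or copies of a standard gene (Rpl3l, Rpl7l1, Rpl10l, Rpl22l1, Rpl39l, Rps4l, Rps12l1 and Rps27l).

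Transcripts were measured in splenic B cells of mice homozygous for a deletion of the whole 3' regulatory region of the immunoglobulin heavy chain locus (3'RR deletion), of its hs3b and hs4 enhancers (hs3b-hs4 deletion) or of the element named 3'PAL (3'PAL deletion), and of wild-type mice, all on a mixed background labelled 129/C58BL/6. Cells of each genotype were analysed after 48 hours with 5 µg/mL lipopolysaccharide (LPS, a bacterial component that activates B cells, here called stimulated) or fresh after isolation (resting). Each genotype and state gave 1 library, made from pooled CD43-negative cells of 4 animals, so 8 libraries were compared. Ages of the animals are not stated. No library came from cells cultured without LPS, so LPS and 48 hours of culture cannot be told apart. Changes with stimulation, as named below, cover both. No genotype has a replicate within a state. In the comparison of states the 4 genotypes stand in for replicates. The fit holds a genotype term, so its p-values rest on how much the change between states varied among genotypes.

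Ribosomal proteins are needed in equal numbers, since a ribosome holds a single copy of nearly all of them. In mammals their mRNAs are among the most abundant of the cell and begin with a 5' terminal oligopyrimidine tract (TOP), through which their translation is coupled to nutrient and growth signals that pass through the kinase complex mTORC1. Resting B cells are small cells with little cytoplasm, and LPS makes them grow, divide and begin to secrete antibody.

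The libraries held 17883683 to 28785192 gene counts. B cell markers were high in all of them, with a summed level of 2320 to 2927 CPM over 6 genes in stimulated and 3013 to 3146 CPM in resting libraries (CPM, gene counts scaled to library size and composition). Of the 6, 4 fell with stimulation. All 8 erythroid markers fell, with sums of 10.3 to 243.9 CPM in stimulated and 3108 to 21560 CPM in resting libraries. All 9 monocyte and macrophage markers fell, with sums of 7.37 to 15.4 CPM in stimulated and 282 to 1261 CPM in resting libraries, and 1 to 5 of them were at 0 in each stimulated library. Summed T cell markers stood at 10.8 to 21.7 CPM in stimulated and 31.2 to 62.6 CPM in resting libraries, neutrophil markers at 0.0353 to 0.0792 and 0.363 to 3.63 CPM, and plasma cell markers at 546 to 1690 and 212 to 1018 CPM. The part of these cells in the results below was not tested, and in bulk samples fewer cells of a type and less RNA per cell cannot be told apart. The wild-type resting library stood apart, where the ribosomal RNA-like model AY036118 held 1.94% of gene counts, against at most 0.0842% in the other 7.

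Of the 85 genes, 82 passed the filter on low counts. The 3 others were the paralogs Rpl10l, with no count in any library, Rpl3l, with 0 to 6 counts, and Rpl39l, with 0 to 10 counts. Their parent genes Rpl10, Rpl3 and Rpl39 had 11546 to 38078, 14117 to 43438 and 8273 to 21488 counts per library. Rpl10l and Rpl39l are known from testis and Rpl3l from striated muscle.

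The ribosomal protein genes took a larger share of all counts in stimulated cells. They held 7.53% of gene counts in stimulated 3'RR deletion, 6.88% in stimulated hs3b-hs4 deletion, 6.93% in stimulated 3'PAL deletion and 6.87% in stimulated wild-type cells. Resting cells with the 3'RR deletion gave 5.57%, those with the hs3b-hs4 deletion 6.01%, those with the 3'PAL deletion 5.35% and wild-type cells 4.71%. The 4 stimulated libraries all lay above the 4 resting ones, and the wild-type resting library had the lowest share. These shares are relative to all counted RNA, so they say nothing of the amount of RNA per cell.

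**Figure D1:**
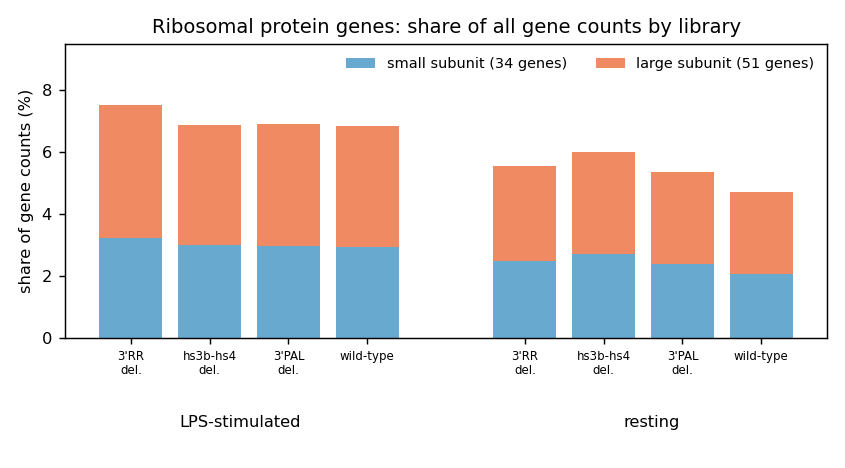
Share of all gene counts (%) held by the 85 ribosomal protein genes in each of the 8 libraries, stacked by small and large subunit. The stimulated libraries reach 6.87 to 7.53%, and the resting libraries reach 4.71 to 6.01%.

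Per transcript length, most genes lay at similar levels. Expressed as TPM (a level per transcript length that adds up to the same total in each library, estimated by kallisto and here summed over each gene and its near-identical copies), the means over 8 libraries of the 77 standard genes ran from 723 to 7094 with a median of 1684, and 69 of them lay within 2-fold of that median. The 3 highest were the small-subunit genes Rps27 (7094 TPM), Rps12 (5113 TPM) and Rps29 (4850 TPM), each with its copies. The values of Rps27 and Rps12 come from their copies, since kallisto lists these 2 genes themselves at 0. Rps27 stood at 5686 to 6632 TPM in stimulated and 3825 to 9837 TPM in resting libraries, Rps12 at 6156 to 6785 TPM and 1996 to 4636 TPM, and Rps29 at 4695 to 5023 TPM and 2133 to 6266 TPM. Stimulated and resting libraries did not overlap for Rps12, and they overlapped for Rps27 and Rps29 because of the low resting wild-type library. In that library Lars2 took 15.4% of the estimated counts, and its part in these levels was not tested. The lowest of the genes that passed the filter were Rps12l1 (listed at 0 TPM), Rps4l (1.95 TPM) and Rpl7l1 (43.0 TPM).

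Most ribosomal protein genes rose with stimulation, most of them by less than 1 on the log2 scale. Of 82 tested, 63 were higher in stimulated than in resting cells and 2 were lower (edgeR quasi-likelihood test, adjusted p below 0.05). Over all 14789 genes tested, 34.5% were higher, 35.2% were lower and 69.7% were called in either direction. The median log2 fold change of the ribosomal protein genes was 0.48, against -0.02 over all genes. In 56 of the 82 (68.3%) every stimulated library lay above every resting one, and the same held for 30.8% of all genes. In the large subunit 41 of 48 genes rose and 1 fell, with a median log2 fold change of 0.50, and in the small subunit 22 of 34 rose and 1 fell, with a median of 0.46. Without the 3'RR deletion libraries 46 genes rose, and without the wild-type resting library 51 rose. In these smaller fits 62.8% and 61.9% of all genes were called in either direction, also fewer than in the main fit. In every setting tried the same 41 genes rose.

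The rises were spread over both subunits and mostly lay below 1 on the log2 scale. In the large subunit 17 genes rose by 0.28 to 0.49 on the log2 scale, 22 by 0.51 to 0.98, and Rpl41 and Rpl29 by more than 1. The smaller rises included those of Rpl13a, described in human monocytes as a regulator of translation, and Rpl26, known in human cells to bind p53 mRNA. The middle group held the core proteins Rpl3, Rpl4, Rpl6, Rpl7 and Rpl8. In the small subunit 9 genes rose by 0.26 to 0.49, among them Rps19, the gene most often mutated in human Diamond-Blackfan anaemia, and 11 rose by 0.51 to 0.91, among them Rps26. Rps2 and Rps27l rose by more than 1. The genes picked out here were chosen after their values were seen.

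**Figure D2:**
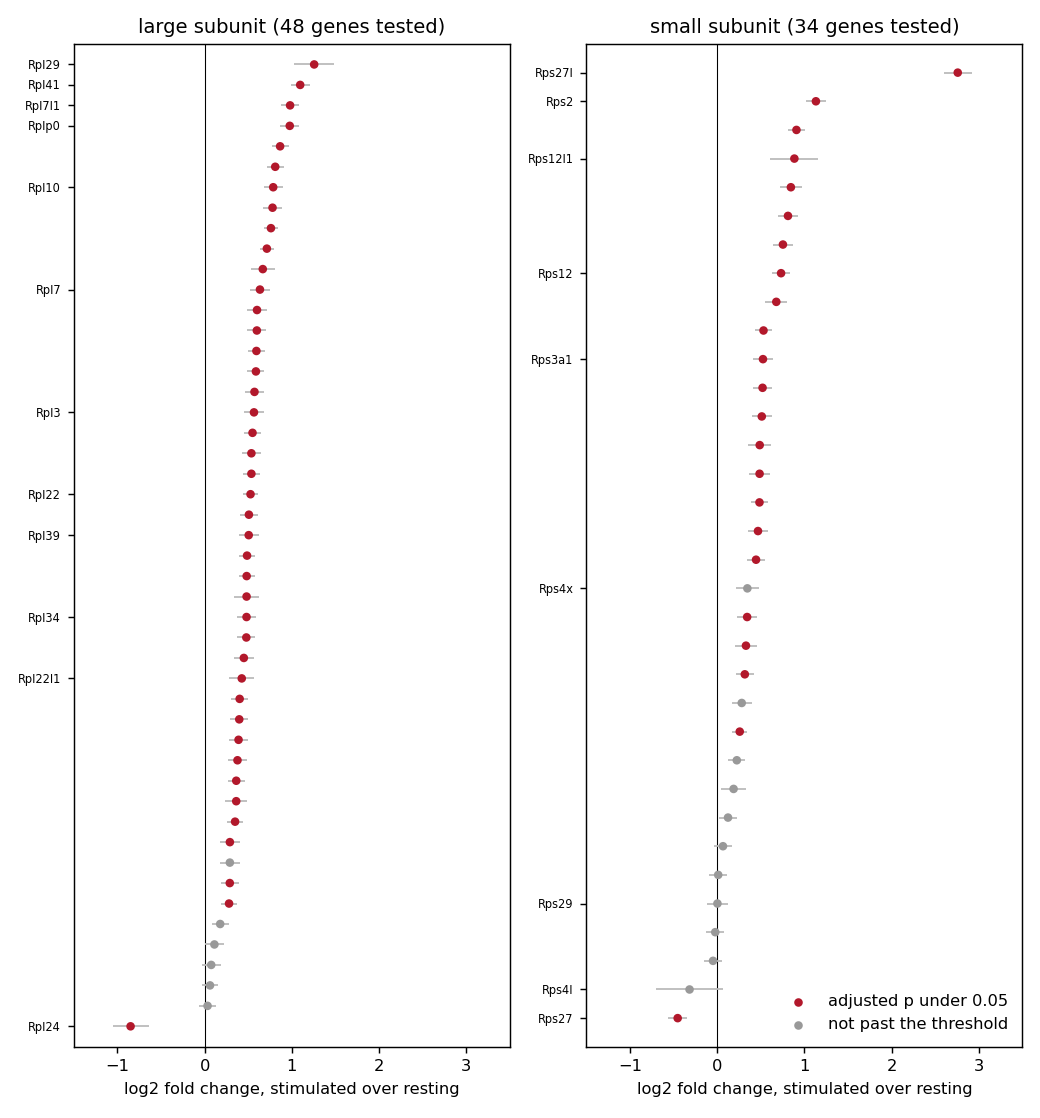
Log2 fold change of each tested ribosomal protein gene in stimulated over resting cells (x axis), with standard errors as bars, by subunit and in order of size, with a symbol beside the genes that the naming rule picked. Red points passed an adjusted p of 0.05, and most genes lie between 0 and 1, with Rps27l at 2.76 and Rpl24 at -0.85 at the ends.

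The largest rise was that of Rps27l (chr9:66946086-66949516, plus strand, GRCm38), a paralog of the small-subunit gene Rps27 known as a target of p53. Rps27l had 136.3 CPM in stimulated 3'RR deletion, 147.7 CPM in hs3b-hs4 deletion, 105.2 CPM in 3'PAL deletion and 158.3 CPM in wild-type cells, against 23.1, 19.9, 21.2 and 16.2 CPM in resting cells of the same genotypes. All stimulated libraries lay far above all resting ones, and the log2 fold change was 2.76 ± 0.16 (SE, adjusted p = 1.5e-05 by edgeR). Counting error is small beside this difference, with an exact 95% Poisson interval of 14.4 to 18.1 CPM for the lowest value, 312 counts in resting wild-type cells.

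Rps27 itself (chr3:90212725-90213615, minus strand, GRCm38) moved the other way. It had 1125 CPM in stimulated 3'RR deletion, 938 CPM in hs3b-hs4 deletion, 996 CPM in 3'PAL deletion and 885 CPM in wild-type cells, against 1392, 1472, 1488 and 1070 CPM in resting cells of the same genotypes. Each genotype was lower in stimulated cells, but resting wild-type cells lay below stimulated 3'RR deletion cells, so the groups overlapped. The log2 fold change was -0.45 ± 0.11 (SE, adjusted p = 0.0069 by edgeR). Without the hs3b-hs4 deletion libraries it was -0.37 and no longer passed (adjusted p = 0.070). Per length, Rps27l made up 5.90 to 9.44% of the TPM of the pair in stimulated cells and 0.782 to 0.964% in resting cells, with no overlap. The TPM of Rps27 used here is that of its near-identical copies, since kallisto assigned no counts to Rps27 itself.

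The coding sequences of the pair, without the stop codon, are both 252 bases long in the GENCODE vM21 transcripts of GRCm38 and match at 192 positions (76.2% identity). The 60 bases that differ, in capitals below, are spread along the sequence. They are shown because the 2 genes moved in opposite directions.
Rps27: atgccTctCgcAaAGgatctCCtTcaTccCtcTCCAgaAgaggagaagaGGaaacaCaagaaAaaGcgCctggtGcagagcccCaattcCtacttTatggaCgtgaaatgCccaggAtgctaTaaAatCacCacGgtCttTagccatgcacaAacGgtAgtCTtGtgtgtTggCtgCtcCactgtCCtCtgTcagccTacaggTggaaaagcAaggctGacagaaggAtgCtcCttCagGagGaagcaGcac
Rps27l: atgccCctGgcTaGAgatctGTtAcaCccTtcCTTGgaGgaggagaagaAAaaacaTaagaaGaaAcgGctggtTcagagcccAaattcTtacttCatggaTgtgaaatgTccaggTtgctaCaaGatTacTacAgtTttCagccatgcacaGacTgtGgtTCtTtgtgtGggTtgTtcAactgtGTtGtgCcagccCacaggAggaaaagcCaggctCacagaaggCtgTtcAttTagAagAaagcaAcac

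**Figure D3:**
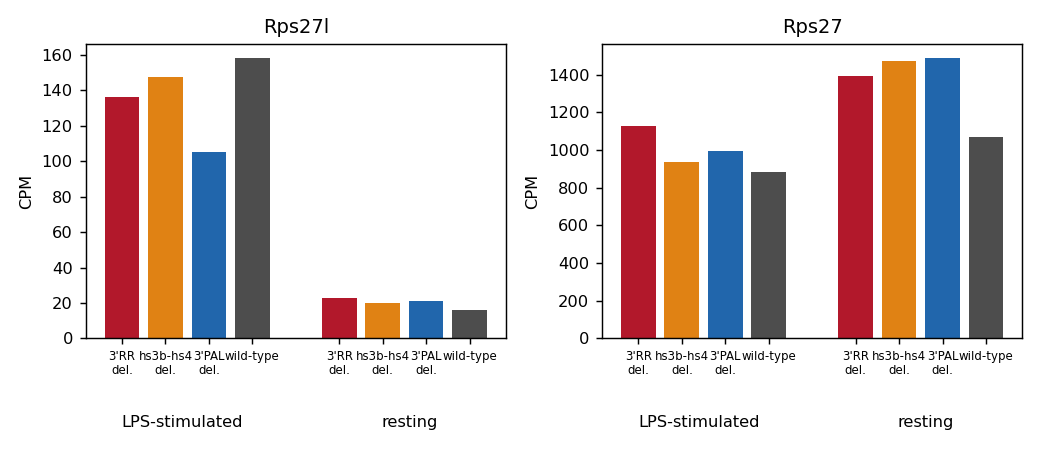
Level of Rps27l and Rps27 (CPM, linear axes from 0) in the stimulated and resting library of each genotype, 1 bar for each library. Rps27l lies at 105.2 to 158.3 CPM in stimulated and 16.2 to 23.1 CPM in resting libraries, and Rps27 at 885 to 1125 CPM and 1070 to 1488 CPM.

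Among the other large rises, Rplp0 forms the base of the ribosomal stalk, which binds translation factors. It had 2508 CPM in stimulated 3'RR deletion, 1836 CPM in hs3b-hs4 deletion, 1615 CPM in 3'PAL deletion and 1637 CPM in wild-type cells, against 1255, 983, 950 and 692 CPM in resting cells of the same genotypes, and rose by 0.98 ± 0.11 on the log2 scale (SE, adjusted p = 0.00021 by edgeR). The 2 groups did not overlap. Its stalk partners Rplp1 and Rplp2, named after their values were seen, rose by 0.48 ± 0.14 (adjusted p = 0.020) and 0.36 ± 0.10 (adjusted p = 0.013), in the same edgeR fit.

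Rpl41 encodes the smallest protein of the ribosome. Its levels were 932, 906, 881 and 834 CPM in stimulated 3'RR deletion, hs3b-hs4 deletion, 3'PAL deletion and wild-type cells, against 417, 491, 454 and 319 CPM in resting cells in the same order, a log2 fold change of 1.10 ± 0.11 (SE, adjusted p = 0.00012 by edgeR). Rps2, a small-subunit protein near the mRNA entry site, had 1659, 1456, 1057 and 1669 CPM in stimulated cells of these genotypes, against 656, 732, 572 and 673 CPM in resting cells, a log2 fold change of 1.13 ± 0.11 (SE, adjusted p = 0.00012 by edgeR). Neither gene had a stimulated library below a resting one. Rpl29 rose by 1.26 ± 0.23 (SE, adjusted p = 0.0020 by edgeR) but varied widely between genotypes and has near-identical copies. Without the genotype term its log2 fold change was 1.05 and no longer passed (adjusted p = 0.102 by edgeR). Rpl7l1, the paralog of Rpl7 and a low gene, had 124.0, 139.3, 117.8 and 143.3 CPM in stimulated and 60.1, 75.5, 70.3 and 60.2 CPM in resting cells, and rose by 0.98 ± 0.10 (SE, adjusted p = 0.00013 by edgeR), while Rpl7 rose by 0.63 ± 0.11.

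The remaining paralogs and their parents had log2 fold changes below 1. Rpl22l1 rose by 0.43 ± 0.14 (SE, adjusted p = 0.029 by edgeR) and Rpl22 by 0.53 ± 0.09, and the call of Rpl22l1 was lost in 4 alternative settings, with adjusted p up to 0.117. Rpl3, Rpl10 and Rpl39 rose by 0.57, 0.79 and 0.51 on the log2 scale. Rps12 rose by 0.73 and its copy Rps12l1, with only 33 to 52 counts in stimulated and 15 to 24 counts in resting libraries, by 0.89 ± 0.28 (SE, adjusted p = 0.023 by edgeR). The call of Rps12l1 was lost in 5 alternative settings, with adjusted p up to 0.102 (edgeR). Rps4l had 15 to 47 counts in stimulated and 19 to 49 in resting libraries and a log2 fold change of -0.32 ± 0.39 (SE, adjusted p = 0.49 by edgeR). Its parent Rps4x had a log2 fold change of 0.35 ± 0.13 (SE, adjusted p = 0.051 by edgeR).

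Some members are known for roles beside or within translation control, and are named here for these roles after their values were seen. Rps6, the substrate of the S6 kinases, rose by 0.48 ± 0.10 (SE, adjusted p = 0.0036 by edgeR). Rpl5 and Rpl11, which with 5S ribosomal RNA can bind the p53 inhibitor Mdm2, rose by 0.39 ± 0.11 (adjusted p = 0.017) and 0.59 ± 0.10 (adjusted p = 0.0013). Rps27a, which is made as a fusion with ubiquitin, rose by 0.81 ± 0.12 (adjusted p = 0.00071), and Rpsa, also described as a laminin receptor, by 0.51 ± 0.11 (adjusted p = 0.0056). These values lie close to the median of all members, apart from that of Rps27a.

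In 17 genes the difference did not pass the test, with log2 fold changes from -0.32 (Rps4l) to 0.35 (Rps4x). They included Rps29, one of the most abundant per length, at 941, 839, 894 and 802 CPM in stimulated 3'RR deletion, hs3b-hs4 deletion, 3'PAL deletion and wild-type cells, against 932, 1032, 905 and 645 CPM in resting cells in the same order (0.00 ± 0.12). Others were Rpl12, Rpl17, Rpl30, Rpl37a, Rpl38, Rps7, Rps9, Rps14, Rps15, Rps15a, Rps16, Rps21 and Rps24. A p that misses the threshold does not show that these genes were unchanged.

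Rpl24 was the other gene called lower, and its value depends on how reads were assigned. In the gene table it had only 71, 64, 83 and 88 counts in stimulated 3'RR deletion, hs3b-hs4 deletion, 3'PAL deletion and wild-type cells, against 102, 165, 155 and 83 counts in resting cells in the same order, a log2 fold change of -0.85 ± 0.21 (SE, adjusted p = 0.0081 by edgeR). By kallisto it had 13990, 11678, 14043 and 14207 estimated counts in stimulated and 8190, 6848, 7097 and 4532 in resting cells, and was higher by 0.98 on the log2 scale (adjusted p = 9.9e-05 by edgeR on rounded counts). The 2 tables thus gave opposite directions for Rpl24, a protein at the bridge between the subunits, and the cause was not tested.

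Within each genotype the shift was seen in most of the 79 members with enough counts, and its size differed. The median log2 ratio of stimulated to resting cells was 0.57 in 3'RR deletion (77 of 79 higher), 0.30 in hs3b-hs4 deletion (67 higher), 0.34 in 3'PAL deletion (68 higher) and 0.70 in wild-type cells (78 higher). The medians of all genes were 0.09, 0.10, 0.09 and 0.15. The wild-type value rests on the resting library that stands apart, and with 1 library for each genotype and state these differences were not tested.

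A TOP-like start was looked for in RefSeq promoter sequences (GRCm38.p6), which were found for 63 of the 85 genes. The motif was a C at the annotated transcription start followed by at least 4 bases that are each C or T, on the transcribed strand only. It was found in 13 of the 63 genes (20.6%) and in 3.01% of 27025 genes with a promoter. With the C allowed within 5 bases of the annotated start the shares were 46.0% and 21.2%. None of 69 mitochondrial ribosomal protein genes, which are not classed as TOP mRNAs, had the motif at the exact start, and 24.6% had it within 5 bases. The sequences below run from 10 bases before the annotated start, and capitals mark the start base and any unbroken run of C or T that follows it. The first 4 genes have the motif, and the last 4 are among those with the largest changes and do not.
Rps27, chr3:90213629-90213658, minus strand: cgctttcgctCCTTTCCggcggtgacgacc
Rps6, chr4:86857348-86857377, minus strand: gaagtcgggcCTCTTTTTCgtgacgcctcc
Rpl35, chr2:39005112-39005141, minus strand: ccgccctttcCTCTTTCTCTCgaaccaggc
Rpl15, chr14:18270967-18270996, minus strand: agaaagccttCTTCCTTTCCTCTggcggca
Rps27l, chr9:66946076-66946105, plus strand: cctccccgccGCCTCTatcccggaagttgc
Rps2, chr17:24720053-24720082, plus strand: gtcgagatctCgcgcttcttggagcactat
Rpl41, chr10:128549149-128549178, minus strand: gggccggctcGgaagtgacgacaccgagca
Rplp0, chr5:115559457-115559486, plus strand: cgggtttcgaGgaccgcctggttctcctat

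At its annotated start Rps27l has a C and T run behind a G, at a start that RefSeq gives beside another one downstream. A missing match says only that these letters are not at this annotated start, and starts used in these cells were not measured. Among the 60 genes that were tested and had a promoter, the median log2 fold change with stimulation was 0.36 in the 13 with the motif (9 rose) and 0.49 in the 47 without it (38 rose). The 2 sets spanned overlapping ranges, -0.45 to 0.81 and -0.85 to 2.76, and the difference between them was not tested.

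Other genes of protein synthesis were set beside the ribosomal proteins as counts, to be read against the 34.5% of all genes that rose and the 35.2% that fell. Of 22 other TOP mRNA genes, mostly translation factors, 15 rose and 2 fell with stimulation, with a median log2 fold change of 0.56. Npm1, a nucleolar chaperone of ribosome assembly, rose by 1.74 ± 0.14, and the elongation factor subunits Eef1g and Eef1d rose by 1.00 ± 0.09 and 1.07 ± 0.11 (SE). Eif4a2 and Eif3f fell, by 0.57 and 0.40 on the log2 scale. Fau, which encodes a further ribosomal protein fused to a ubiquitin-like sequence, did not pass the test, with a log2 fold change of -0.14. Of 5 noncoding TOP genes that host small nucleolar RNAs, Snhg5 and Gas5 rose by 1.10 ± 0.09 and 0.39 ± 0.13 and Snhg12 fell by 1.03 (SE).

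Genes that build ribosomes had a larger median change than the ribosomal protein genes. Of 34 assembly factors and chaperones 29 rose and 1 fell, with a median log2 fold change of 0.99. Nhp2 and Dkc1, parts of the complex that converts uridines of ribosomal RNA to pseudouridine, rose by 1.64 ± 0.11 and 1.67 ± 0.13 (SE), and Bop1 and Wdr12, partners in large-subunit maturation, by 1.42 ± 0.11 and 1.30 ± 0.10. Sbds, which acts late in large-subunit maturation, fell by 0.34. Of 15 genes of RNA polymerase I transcription 9 rose and 2 fell (median 0.50). Of 79 mitochondrial ribosomal protein genes 76 rose and none fell (median 1.07), led by Mrpl18 at 2.18 ± 0.10. The difference between these lists and the ribosomal proteins was not tested.

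Among 17 genes of mTORC1 signalling and TOP mRNA control 9 rose and 5 fell (median 0.29), where 34.5% of all genes rose and 35.2% fell. The cap-binding protein gene Eif4e rose by 1.29 ± 0.11, Eif4g1 by 1.25 ± 0.10 and Larp1, whose protein binds TOP sequences, by 0.63 ± 0.08 (SE). Myc, a transcription factor that drives ribosome production and was placed in this list, fell by 2.12 ± 0.12 on the log2 scale, and Rptor, Rheb, Tsc2 and Eif4ebp3 also fell. All 6 genes of the p53 axis rose (median 1.25), among them Trp53 at 0.90 ± 0.08, Ccng1 at 2.06 ± 0.15 and Mdm2 at 0.27 ± 0.08.

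Few ribosomal protein genes were called in a mutant over both states. In 3'RR deletion cells 3 of 82 genes were higher than in wild-type and none lower (edgeR, adjusted p below 0.05), where 0.866% of all genes were higher, 1.01% lower and 1.88% either. The hs3b-hs4 deletion cells had none of 82 called, where 0.0676% of all genes were higher, 0.0676% lower and 0.135% either. None of 82 was called for the 3'PAL deletion, where 0.338% of all genes were higher, 0.176% lower and 0.514% either. At an unadjusted p below 0.05 the counts were 10, 3 and 2 of 82 for 3'RR, hs3b-hs4 and 3'PAL deletion, where 13.7%, 8.90% and 9.55% of all genes had such a p. DESeq2 called 5, 0 and 1 of 82, where it called 3.59%, 1.22% and 1.74% of all genes. The median log2 fold changes were 0.22, 0.18 and 0.20, against 0.05, 0.04 and 0.03 over all genes. These comparisons share the 2 wild-type libraries. In them the 2 states stand in for replicates of a genotype. The fit takes a mutant change to be the same in both states, and this was not tested. For the hs3b-hs4 and 3'PAL deletions the medians within a state, given below, differed between states. Without the resting wild-type library, which stands apart, the median log2 fold changes of the fit were 0.08, 0.05 and 0.05. Those over all genes were 0.03, 0.02 and 0.03. Wild-type then has 1 library, so calls are not given.

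Within a state, most members lay above wild-type in all 3 resting mutants and in stimulated 3'RR deletion cells. In stimulated cells the median log2 ratio of 79 members to wild-type was 0.16 in 3'RR deletion (73 higher), 0.0080 in hs3b-hs4 deletion (43 higher) and 0.02 in 3'PAL deletion (45 higher). For the resting libraries of these mutants it was 0.29 (77 higher), 0.37 (78 higher) and 0.37 (77 higher). The medians of all genes, in the same order, were -0.0038, -0.0033 and -0.030 in stimulated and 0.050, 0.062 and 0.065 in resting cells. A ratio of at least 2-fold was met by Rpl29, Rpl34 and Rps3a1 in stimulated and in resting 3'RR deletion cells and by Rpl29 in resting 3'PAL deletion cells. Such a ratio was met by 3.25% of all genes for the 3'RR deletion, 1.47% for the hs3b-hs4 deletion and 3.06% for the 3'PAL deletion in stimulated cells, and by 5.68%, 3.65% and 3.63% in resting cells. These values have no replicate, and all 3 resting ratios share the wild-type resting library that stands apart. Its summed level of AY036118 and Lars2 was 18030 CPM, against 376.8 to 819.5 CPM in the resting mutants, and the part of this in the ratios was not tested. Erythroid markers moved with genotype, with 8 of 8 called higher than wild-type for the 3'RR deletion, 1 of 8 for the hs3b-hs4 deletion and 8 of 8 for the 3'PAL deletion, and so did monocyte and macrophage markers, with 5 of 9 called higher for the 3'RR deletion and 0 of 9 for the hs3b-hs4 and for the 3'PAL deletion. Of 3 T cell markers tested, 1 was called higher for the 3'RR deletion and none for the other mutants. The part of these cells in the ratios was not tested.

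Rps3a1, Rpl34 and Rpl29, the 3 genes called in 3'RR deletion cells, encode 1 small-subunit and 2 large-subunit proteins, and all have near-identical processed copies elsewhere in the genome. Rps3a1 (chr3:86137940-86142702, GRCm38) had 1736 CPM in the stimulated 3'RR deletion library, against 1037, 737 and 767 CPM in stimulated hs3b-hs4 deletion, 3'PAL deletion and wild-type cells. In resting cells it had 1156 CPM in 3'RR deletion, against 597, 610 and 564 CPM in these genotypes. The log2 fold change of 3'RR deletion over wild-type was 1.11 ± 0.16 (SE, adjusted p = 0.020 by edgeR). In both states the 3'RR deletion library was the highest, and the other genotypes lay near each other, apart from stimulated hs3b-hs4 deletion cells.

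Rpl34 (chr3:130726831-130730398, minus strand, GRCm38) was also highest in 3'RR deletion cells in both states, with 522 CPM in the stimulated 3'RR deletion library, against 332, 222 and 223 CPM in stimulated hs3b-hs4 deletion, 3'PAL deletion and wild-type cells, and with 408 CPM in resting 3'RR deletion cells, against 199.6, 188.6 and 146.7 CPM. The log2 fold change of 3'RR deletion over wild-type was 1.35 ± 0.15 (SE, adjusted p = 0.0079 by edgeR). Rpl29 had 489 CPM in the stimulated 3'RR deletion library, against 249, 321 and 164 CPM, and 256 CPM in resting 3'RR deletion cells, against 55.8, 200.5 and 67.2 CPM. Its log2 fold change was 1.76 ± 0.32 (SE, adjusted p = 0.049 by edgeR).

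A search of GENCODE vM21 transcripts found 572 copies with at least 95% identity over at least 80% of a member's coding sequence, and 77 members had such a copy. Rps3a1 differs from its copy Rps3a2 in 4 of 792 coding bases, Rpl34 from Rpl34-ps1 in 2 of 351, and Rpl29 from Gm8210 in 3 of 480. Bases 120 to 330 of the Rpl34 and Rpl34-ps1 coding sequences hold both differences, shown in capitals, and a coding read that covers neither fits both genes.
Rpl34 (chromosome 3): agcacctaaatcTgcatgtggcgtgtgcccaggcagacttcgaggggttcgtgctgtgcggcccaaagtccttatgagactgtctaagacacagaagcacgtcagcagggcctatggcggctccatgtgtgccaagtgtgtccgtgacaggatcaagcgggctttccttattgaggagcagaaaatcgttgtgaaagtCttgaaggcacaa
Rpl34-ps1 (chromosome 6): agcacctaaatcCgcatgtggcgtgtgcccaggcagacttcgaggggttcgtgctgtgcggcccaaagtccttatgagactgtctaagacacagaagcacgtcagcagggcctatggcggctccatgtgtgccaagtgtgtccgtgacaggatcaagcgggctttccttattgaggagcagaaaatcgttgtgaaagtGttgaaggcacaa

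In the kallisto estimates these copies held few reads in the 3'RR deletion libraries and many in the 6 others. Copies of Rps3a1 had 12.8 estimated counts in the stimulated 3'RR deletion library, against 11014, 23828 and 23328 in stimulated hs3b-hs4 deletion, 3'PAL deletion and wild-type cells. In resting cells they had 15.6 in 3'RR deletion, against 18680, 17157 and 10462. Copies of Rpl34 had 4.22 and 6.54 estimated counts in stimulated and resting 3'RR deletion cells, against 2894 to 5854 in the 6 other libraries. Copies of Rplp0 and Rps13 showed the same, with 53.4 and 24.7 for Rplp0 and 9.95 and 15.6 for Rps13 in 3'RR deletion cells, against at least 3449 and 3313 in each other library. Copies of Rpl29 had 52.6 and 66.2, against 778 to 3406. Why the 3'RR deletion libraries differ in these copies was not tested.

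When gene counts were summed over each member and its copies, none of the 82 was called in 3'RR deletion cells. In that fit 1.62% of all genes were called, so a count of none lies near the share over all genes. The lowest adjusted p of the 82 was 0.25 (edgeR). Rps3a1 then had 1822 CPM in the stimulated 3'RR deletion library, against 1548, 1587 and 1630 CPM in stimulated hs3b-hs4 deletion, 3'PAL deletion and wild-type cells, and a log2 fold change over wild-type of 0.17 ± 0.15 (SE). Rpl34 had 526 CPM, against 499.8, 508 and 506 CPM, with 0.18 ± 0.14, and Rpl29 had 559 CPM, against 512, 505 and 504 CPM, with 0.27 ± 0.13. The stimulated libraries thus lay close together in the sums, and the 3 calls were not made in the sums. The sum of kallisto counts gave another result for Rpl34 (log2 fold change 1.07, adjusted p = 0.0165 by edgeR) and called Rplp0 as well. The 63 genes that rose with stimulation all rose in the summed gene counts too, where 66 were called higher and 1 lower. There 70.5% of all genes were called in either direction.

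**Figure D4:**
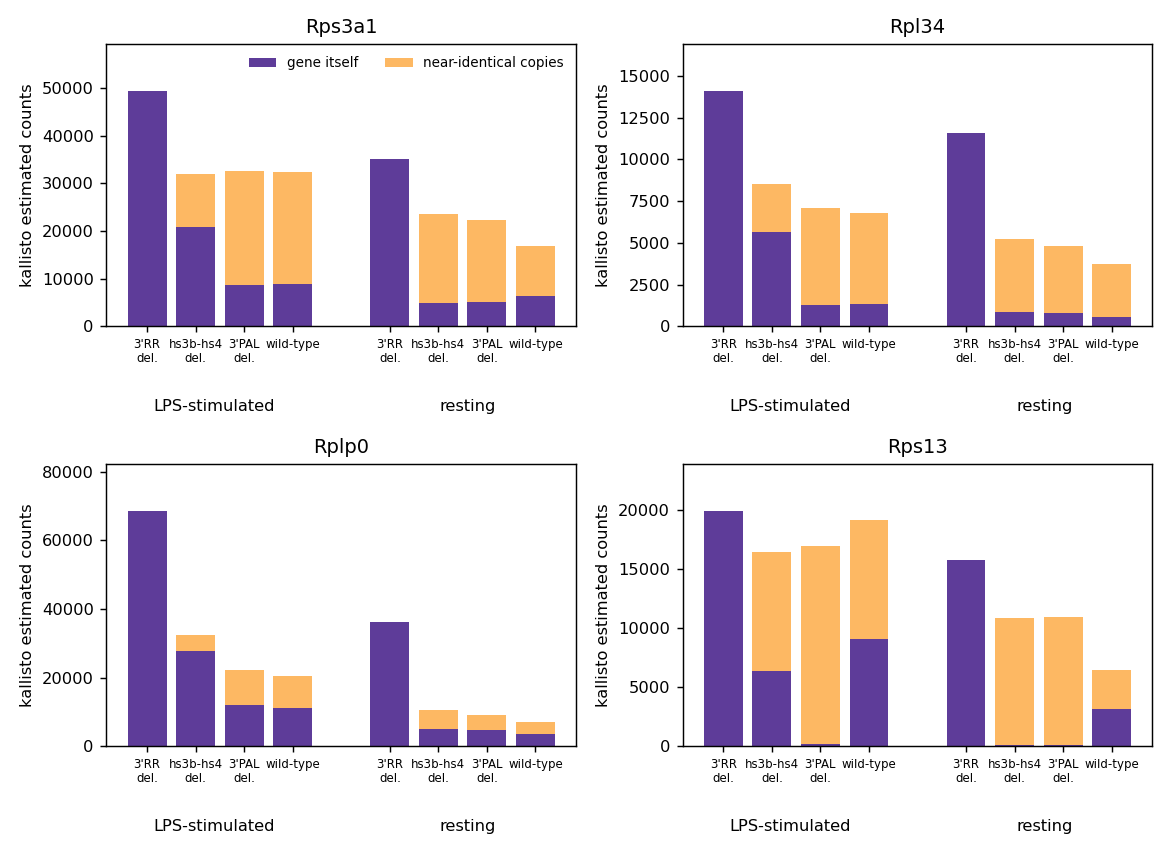
Kallisto estimated counts of Rps3a1, Rpl34, Rplp0 and Rps13 (purple) and of their near-identical copies (orange) in each library. In 3'RR deletion libraries the copies hold at most 53.4 estimated counts, and in the 6 other libraries they hold 2894 to 23828.

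**Figure D5:**
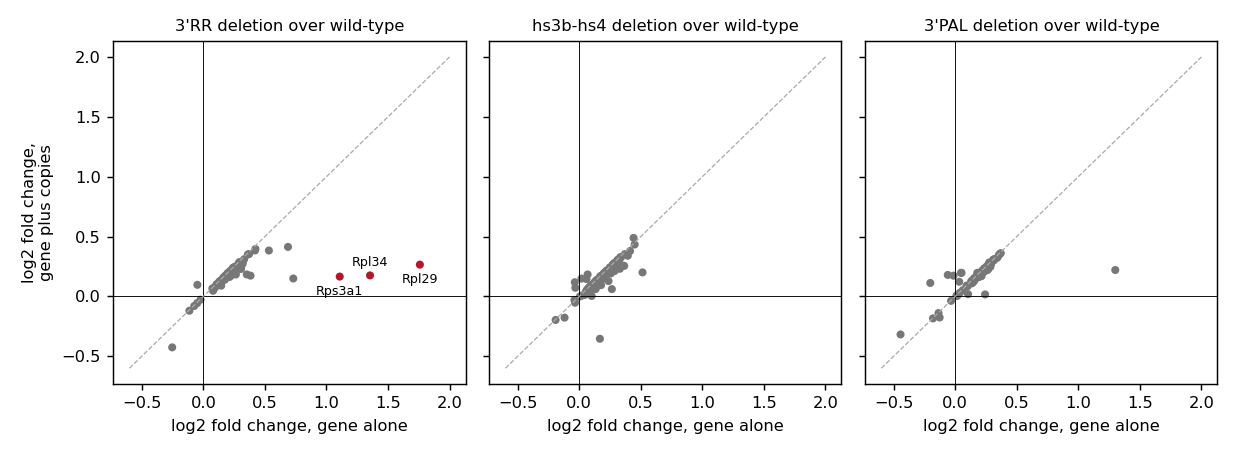
Log2 fold change of each of 82 ribosomal protein genes in a mutant over wild-type, for the gene alone (x axis) and for the gene summed with its copies (y axis). The 3 genes called in 3'RR deletion cells (red) lie at 1.11 to 1.76 alone and at 0.17 to 0.27 with copies, and the dashed line marks equal values.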

How the data were processed

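RNA was measured in 8 libraries (4 genotypes, 2 states), each from pooled cells of 4 animals. The authors deposited raw counts per gene symbol, and STAR 2.4.0a, featureCounts of Subread 1.4.6-p1 and the builds mm10 and GRCm38 are named in the submitters' processing notes. The authors also deposited estimated counts and TPM per transcript, made with kallisto 0.42.3 per the submitters' processing notes. Strand setting, annotation version and the handling of reads that map to several places were not given in the sources used here, so members with copies or overlapping genes are uncertain. Ribosomal RNA was depleted and stranded libraries were sequenced, per the labels' protocols.

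Counts were scaled by TMM (factors 0.943 to 1.08), filtered with filterByExpr and tested with edgeR 4.0.16 in R 4.3.3 by its quasi-likelihood test, modelling genotype plus state over all libraries (16% biological coefficient of variation and 3 degrees of freedom left), with Benjamini-Hochberg adjustment over 14789 genes at 0.05. Standard errors were taken from the fold change and its F statistic. Estimated counts were rounded before tests. The fit was tested on simulated data. Within a state mutants were compared without a test, on log2(CPM + 1), by a log2 ratio of at least 1 with the higher of the pair reaching 10 CPM. Intervals cover counting error only. Total counts of 17883683 to 28785192 for each library set the precision. Copies were found with blastn 2.17.0. Alternatives were RLE factors, library size alone, TMM without members and variable genes, DESeq2 1.42.0, no filter, kallisto counts, no genotype term and leaving out each genotype, and, added after seeing the data, leaving out the resting wild-type library and summing counts over copies.

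Named were the 6 largest rises and the falls that passed, the 3 highest and lowest per length, members below the filter, paralogs with their parents, members called in a mutant and members past the size rule. The members and lists were chosen with earlier results of these data known. Some genes are not reported here by name.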

Additional observations from a re-analysis of the deposited data

Results flagged for a closer look

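In 5 of 48 sets of 4 libraries of a state, 1 library lay far from the other 3 by Dixon's criterion. For sets picked without regard to their values, chance gives about 1 in 20. The sets were the share of counts and the named genes. Rps3a1, Rpl34 and Rpl29 were named in part because a mutant stood apart from wild-type, so that rate does not apply to their sets. The share of counts in ribosomal protein genes was highest in stimulated 3'RR deletion cells at 7.53%, against 6.87 to 6.93% in the other stimulated libraries. Rps3a1 was highest in resting 3'RR deletion cells at 1156 CPM, against 564 to 610 CPM, and with its copies summed it stood at 1229 CPM, against 1081 to 1322 CPM. Rpl10 was lowest in resting wild-type cells at 599 CPM, against 783 to 809 CPM in the resting mutants. Rpl3l was highest in resting 3'PAL deletion cells at 0.164 CPM, which is 4 counts, against 0 in the other resting libraries. Rps12l1 was highest in resting 3'PAL deletion cells at 0.984 CPM, which is 24 counts, against 15 to 21 counts.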

How the results depend on the processing

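Over the alternatives, 63 values of the main results stayed within a limit set for each kind of value. Beyond it, 6 counts of called genes were lower and 7 higher, and 1 share moved. The limit for counts was wide. The 46 genes that rose without the 3'RR deletion libraries, against 63 in the main fit, lay within it. For named genes 288 values kept their side of the adjusted p threshold, 25 lost the call, 7 gained it and 3 changed direction. The number of genes that rose ran from 46 to 61 with each genotype or the resting wild-type library left out and from 55 to 68 otherwise, and the median log2 fold change from 0.41 to 0.55 and from 0.42 to 0.59. The number that fell was 1 to 2 with a genotype left out, and 1 with kallisto counts and with either sum over copies. Rpl24 reversed to 0.98 with kallisto counts, 0.99 with kallisto counts summed over copies and 0.30 with gene counts summed over copies. In 3'RR deletion 3 genes were called without the hs3b-hs4 deletion libraries (1.88% of all genes) and 3 without the 3'PAL deletion libraries (2% of all genes). DESeq2 called 5 (3.59% of all genes), and gene counts summed over copies gave 0 (1.62% of all genes). In hs3b-hs4 deletion 1 was called with kallisto counts, alone or summed. In 3'PAL deletion 1 was called with DESeq2, 1 without a filter, 2 with kallisto counts and 1 with their sums. The share with a TOP-like start moved to 46.0% when the C could lie within 5 bases. Causes were not tested. The comparison of states was paired by genotype through the genotype term. Leaving this pairing out gave 55 genes that rose and 2 that fell, and Rpl22l1, Rpl29, Rpl34 and Rps3a1 no longer passed for stimulation.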

Other observations

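The 2 quantifications of these libraries differed for some members beside Rpl24. Rps27 and Rps12, among the most abundant genes, are listed at 0 in the kallisto table, where Rps27rt and Rps12-ps3, whose sequences match their coding sequences at all 252 and 396 bases, held 21012 to 39958 and 17358 to 51807 estimated counts. Rps2-ps10, a copy of Rps2, had 17752 and 7938 estimated counts in stimulated and resting 3'PAL deletion cells and at most 63 in the other 6 libraries, and Rps2 in the gene table was lowest in 3'PAL deletion cells in both states. In stimulated cells this was 1057 CPM, against 1669 CPM in wild-type.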
